A study of Mus musculus with 6 samples.

Results

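Tumour and normal cells carry surface and secreted proteins that tell immune cells to hold back or to attack, and 10 genes of such ligands other than PD-L1 were followed here in mouse ovarian surface epithelial cells, the cell layer that covers the ovary. They are Cd47 and Cd200, which restrain phagocytes; Lgals9, Vsir and Cd276, which act mainly on T cells; Pvr, Nectin2 and Tnfrsf14, whose proteins meet paired activating and inhibitory receptors; and Tnfsf9 and Tnfsf4, which costimulate T cells. The genes were chosen by name, with earlier results of these data known, and looked up by Ensembl gene ID. All 10 were among the 48440 genes of the count table. RNA was sequenced from 3 Ad-Cre-GFP libraries and 3 Ad-GFP libraries, made 1 week after infection. Ad-Cre-GFP is an adenovirus that carries Cre recombinase and GFP, and these cells are labelled Lats1/2 knockout. Ad-GFP carries GFP without Cre, and these cells are labelled WT, so that both groups share the adenovirus and GFP. The sources used here do not give the mouse strain or age, the conditional alleles, the promoter of Cre or whether replicates are separate cultures. P-values therefore measure only how far these libraries spread, which may be a technical spread, and deletion, Cre exposure and any difference between cultures cannot be told apart.

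LATS1 and LATS2 are the Hippo pathway kinases that phosphorylate the coactivators YAP and TAZ and keep them out of the nucleus. The series title names PD-L1, the ligand of the T cell receptor PD-1, and the genes described here are the further ligands through which a cell of this layer could meet T cells, NK cells and macrophages. CD47 binds SIRP-alpha on macrophages and holds back engulfment, and CD200 binds its receptor on myeloid cells. Galectin-9, the product of Lgals9, is a sugar-binding lectin known as a ligand of TIM-3 and, in many cell types, as interferon-induced.

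Library totals were 29642448, 30304033 and 27734527 counts in the Ad-Cre-GFP libraries, and 21546287, 25363462 and 18690235 counts in the Ad-GFP libraries. Lats1 was at 23.2% and Lats2 at 76.2% of the Ad-GFP level in Ad-Cre-GFP libraries (log2 fold changes -2.10 ± 0.04 and -0.39 ± 0.03, SE). The keratins and mesothelial genes that mark ovarian surface epithelium were present, with 12 of 12 markers tested and a summed level of 4560 to 4607 CPM in Ad-Cre-GFP and 4400 to 4415 CPM in Ad-GFP libraries (CPM is counts scaled to a library total of 1000000, for these sums without further scaling). The similar sums hide changes in both directions: 6 markers were called higher and 5 lower, against 34.0% and 35.8% of all tested genes. Their median absolute log2 fold change was 1.08, against 0.35 over all tested genes. Among 14 immune cell markers, Ncr1, Adgre1, Tyrobp and Laptm5 were at 0 in every library, and the pan-leukocyte gene Ptprc had 8 counts in all Ad-Cre-GFP and 3 in all Ad-GFP libraries. The summed immune list was 6.73 to 7.32 CPM in Ad-Cre-GFP and 11.1 to 13.5 CPM in Ad-GFP libraries, most of it Cd14 and Cd68. Stromal fibroblast markers summed to 972 to 1031 CPM in Ad-Cre-GFP and 2709 to 2868 CPM in Ad-GFP libraries, most of it Col3a1. All 5 tested members were called lower, against 35.8% of all tested genes, and Lum was at 0. The log2 fold change was -1.67 ± 0.04 for Col3a1 but only -0.16 ± 0.03 for Col1a1. Pdgfra (17 counts in all Ad-Cre-GFP, 52 in all Ad-GFP libraries) and Dpt (2 and 29 counts) were scarce. Endothelial markers summed to 21.8 to 23.0 CPM in Ad-Cre-GFP and 8.40 to 9.90 CPM in Ad-GFP libraries, most of it Ptprb and Flt1, with Tie1 at 0. Pecam1 had 10 counts in all Ad-Cre-GFP and 14 in all Ad-GFP libraries, and Cdh5 had 3 and 0. The part of these shifts in the results below was not tested. In bulk RNA, fewer cells that express a gene and less RNA per cell cannot be told apart.

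Of the 10 ligand genes, 9 passed the filter on low counts and were tested. In the edgeR quasi-likelihood test, 4 were called higher in Ad-Cre-GFP libraries (Tnfsf4, Vsir, Lgals9 and Pvr) and 5 lower (Cd47, Cd200, Tnfsf9, Nectin2 and Cd276), where a call is a Benjamini-Hochberg adjusted p under 0.05 over all 14811 genes tested. The background is high in this comparison: 69.8% of all tested genes were called, 34.0% higher and 35.8% lower, so the number of calls alone sets the ligands little apart. Changes of at least 2-fold were called for 5 of the 9 (3 higher, 2 lower), against 13.8% of all tested genes (6.25% higher, 7.56% lower). Tnfsf4, among the 3 higher, passed the filter only through its Ad-Cre-GFP counts (27, 24 and 12, against 1, 1 and 2 in Ad-GFP libraries). With so few control counts, it could enter the test only by being higher in Ad-Cre-GFP. Tnfsf4 is also counted in the median and in the groups without overlap below. The median absolute log2 fold change was 1.50 over the 9 tested ligands and 0.35 over all tested genes, and the median signed values were -0.27 and -0.01. The groups did not overlap for any of the 9 (4 higher, 5 lower), as for 73.0% of all tested genes (35.4% higher, 37.6% lower). Ad-GFP replicate 3, whose total was the smallest, differed from its 2 fellow controls along principal component 2, which holds 3.15% of the variance (a score of -18.7, against 8.85 and 11.1). It was the lowest control for 5 of the 9 and the highest control for 3.

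**Figure D1:**
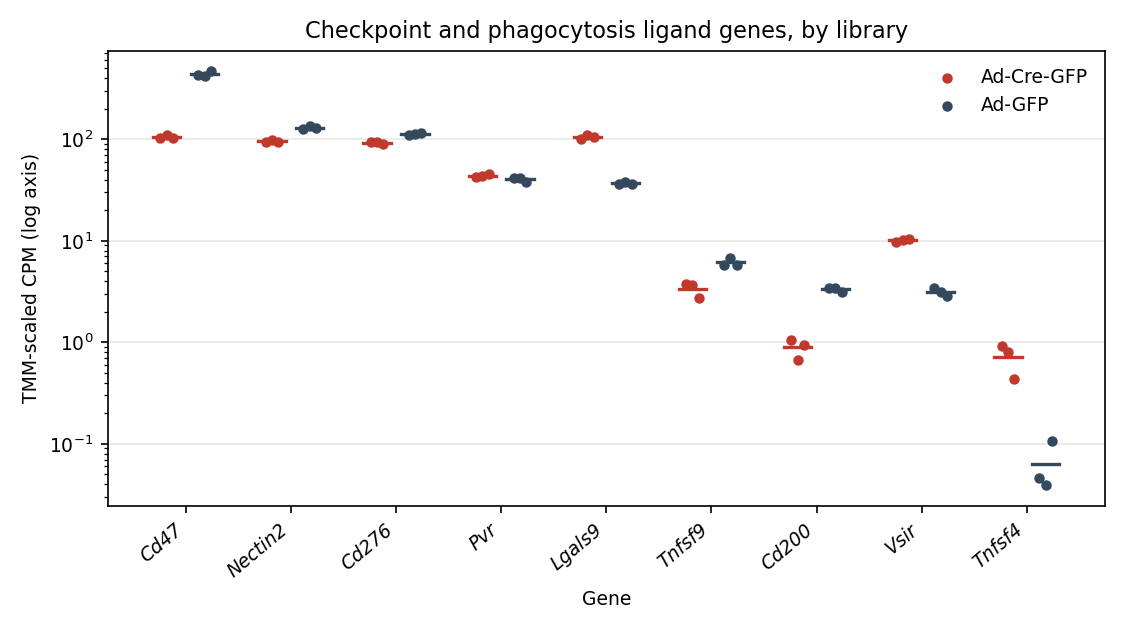
Levels of the 9 tested ligand genes in each library, as TMM-scaled CPM on a log axis; points are libraries (3 per group), short bars are group means, and Ad-Cre-GFP stands left of Ad-GFP. Cd47 lies near 106 CPM in Ad-Cre-GFP and near 441 CPM in Ad-GFP libraries, while Lgals9, Vsir and Tnfsf4 lie higher in Ad-Cre-GFP. Tnfrsf14, with at most 2 counts in a library, is not drawn.

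Both ligands that restrain phagocytes, Cd47 and Cd200, fell. Cd47 (ENSMUSG00000055447, chromosome 16, 49800533 to 49915010, plus strand, GRCm38) encodes a widely expressed membrane protein of the immunoglobulin superfamily. It had 103, 111 and 104 CPM in the Ad-Cre-GFP libraries, against 433, 424 and 465 CPM in the Ad-GFP libraries (TMM-scaled CPM, as for all single genes below). The libraries of each group lay close together, with a coefficient of variation of 3.85% in Ad-Cre-GFP and 4.94% in Ad-GFP, and the highest Ad-Cre-GFP library lay far below the lowest Ad-GFP library. The mean was 106 ± 4.08 CPM in Ad-Cre-GFP and 441 ± 21.8 CPM in Ad-GFP (SD, n = 3 each), a log2 fold change of -2.06 ± 0.04 (SE, edgeR adjusted p = 3.14e-20), or 4.16-fold lower. Of all tested genes, 4.19% had a larger absolute change.

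Cd200 (ENSMUSG00000022661, chromosome 16, 45382135 to 45409053, minus strand), known from neurons, endothelium and lymphocytes, was scarce in both groups. It had 31, 20 and 26 counts in the Ad-Cre-GFP libraries, against 75, 87 and 59 counts in the Ad-GFP libraries, although the Ad-GFP libraries were shallower. In CPM these were 1.06, 0.669 and 0.949 in Ad-Cre-GFP and 3.42, 3.40 and 3.13 in Ad-GFP libraries, with no overlap. The log2 fold change was -1.90 ± 0.19 (SE, edgeR adjusted p = 9.31e-09), and the ratio of summed counts per depth was 3.84-fold lower in Ad-Cre-GFP (95% exact binomial interval 2.95 to 5.04, counting error only). Cd47 and Cd200 lie on the same chromosome, 4.39 Mb apart, and are not neighbours. The nearest tested genes on either side of Cd47, Ift57 (-0.32 ± 0.05) and Bbx (-1.11 ± 0.05), fell too. Of the tested genes on either side of Cd200, Abhd10 rose by 0.33 ± 0.11 on the log2 scale and Gm6030 was not called (0.25 ± 0.16).

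The 250 bases before the annotated start of both genes are shown because these are the 2 phagocytosis ligands that fell together. They come from the RefSeq promoter table (GRCm38.p6), as do those further below, 5′ to 3′ on the gene's strand, with capitals at matches to 4 motifs searched on both strands. The motifs are GGAATG, bound by the YAP partners TEAD, TGANTCA, bound by AP-1, ACGTG, the core of hypoxia response elements, and the interferon-stimulated response element, written as GAAA, any 2 bases and GAAA. Of all 32851 promoter windows of this length, 12.6% hold the TEAD motif, 6.75% the AP-1 motif, 16.6% the hypoxia core and 2.98% the interferon element. RefSeq places the start of Cd47 inside the longer gene model whose coordinates are given above, and its second listed start lies 7 bases further on. The Cd47 window is chr16:49855404-49855653 (plus strand) and the Cd200 window chr16:45409054-45409303 (minus strand).
Cd47: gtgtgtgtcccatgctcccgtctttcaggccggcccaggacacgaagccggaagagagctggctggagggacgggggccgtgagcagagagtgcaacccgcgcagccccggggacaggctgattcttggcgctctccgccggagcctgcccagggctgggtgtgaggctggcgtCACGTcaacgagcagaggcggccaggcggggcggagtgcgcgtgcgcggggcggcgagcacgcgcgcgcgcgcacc
Cd200: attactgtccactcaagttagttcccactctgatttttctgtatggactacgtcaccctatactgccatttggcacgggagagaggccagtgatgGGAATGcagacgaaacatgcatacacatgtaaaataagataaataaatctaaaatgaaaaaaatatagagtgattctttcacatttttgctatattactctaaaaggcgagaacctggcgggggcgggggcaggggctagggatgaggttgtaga
The Cd47 window holds 1 hypoxia core, read on the other strand as CACGT, at bases 76 to 72 before the start, and no TEAD match. The Cd200 window holds 1 TEAD match at bases 155 to 150 before the start. A match is a run of letters and not a measured binding site. The windows also differ in base composition, at 73.2% GC for Cd47 and 42.4% GC for Cd200.

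Other genes of the phagocytosis signal went both ways. Of 15 tested genes of a list of 16, 8 were called higher and 5 lower, with a median log2 fold change of 0.31. The shares over all tested genes were 34.0% higher and 35.8% lower, with a median of -0.01. Without Ad-GFP replicate 2 only 3 were called lower. Thbs1, which encodes thrombospondin-1, a secreted ligand of CD47, had 1863, 1889 and 1793 CPM in Ad-Cre-GFP and 181, 183 and 202 CPM in Ad-GFP libraries, a log2 fold change of 3.29 ± 0.04. The RNA of the secreted ligand thus lay higher and the RNA of its receptor Cd47 lower in the same Ad-Cre-GFP libraries. Stc1 (1.15 ± 0.03), whose product stanniocalcin-1 retains calreticulin inside the cell, and the TAM receptor gene Axl (0.73 ± 0.03) rose. Lrp1, the calreticulin receptor, fell (-1.23 ± 0.06). Among members outside the rule for named genes and chosen after their values were seen, Cd24a, a further anti-phagocytic surface protein, rose by 0.55 ± 0.03, while Calr (-0.38 ± 0.03) and Qpctl, the enzyme that modifies CD47 for SIRP-alpha binding (-0.21 ± 0.07), fell. Sirpa itself was at 1.76 CPM in Ad-Cre-GFP and 1.66 CPM in Ad-GFP libraries and was not called (edgeR adjusted p = 0.737).

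The T cell ligands Lgals9 and Vsir rose. Lgals9 (ENSMUSG00000001123, chromosome 11, 78962974 to 78984946, minus strand) had 99.9, 110 and 105 CPM in the Ad-Cre-GFP libraries, against 36.5, 38.1 and 35.9 CPM in the Ad-GFP libraries. All 3 Ad-Cre-GFP libraries were well above the 3 controls. The log2 fold change was 1.50 ± 0.04 (SE, edgeR adjusted p = 4.71e-18), or 2.84-fold, and 6.89% of tested genes had a larger absolute change. Vsir (ENSMUSG00000020101, chromosome 10, 60346851 to 60372684, plus strand) encodes VISTA, a B7 relative that restrains T cells and is best known from myeloid cells. It had 284, 303 and 285 counts in the Ad-Cre-GFP libraries, against 75, 80 and 54 counts in the Ad-GFP libraries. These were 9.71, 10.1 and 10.4 CPM in Ad-Cre-GFP and 3.42, 3.13 and 2.86 CPM in Ad-GFP libraries, again without overlap. The log2 fold change was 1.68 ± 0.10 (SE, edgeR adjusted p = 3.85e-12), or 3.20-fold. Among markers of myeloid cells, Cd14 fell (-1.23 ± 0.11), Cd68 was not called (-0.02 ± 0.15), Csf1r had 2 counts in all Ad-Cre-GFP and 0 in all Ad-GFP libraries, Itgam had 4 in all Ad-Cre-GFP and 2 in all Ad-GFP libraries, and Adgre1 and Tyrobp had 0. Vsir lies inside Cdh23, a gene of the opposite strand, which had 140 counts in all Ad-Cre-GFP and 212 in all Ad-GFP libraries. The sources used here do not say whether the counting used strand. Without strand, reads cannot be told apart where exons of both genes overlap, and whether their exons overlap was not examined.

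The windows before the starts of these genes are shown because both rose. They are chr11:78984925-78985174 (minus strand) for Lgals9 and chr10:60346601-60346850 (plus strand) for Vsir.
Lgals9: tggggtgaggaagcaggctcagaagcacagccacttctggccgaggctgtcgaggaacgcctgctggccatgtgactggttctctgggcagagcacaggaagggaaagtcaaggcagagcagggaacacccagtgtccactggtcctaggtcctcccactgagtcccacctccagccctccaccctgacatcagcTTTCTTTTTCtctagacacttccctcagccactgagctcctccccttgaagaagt
Vsir: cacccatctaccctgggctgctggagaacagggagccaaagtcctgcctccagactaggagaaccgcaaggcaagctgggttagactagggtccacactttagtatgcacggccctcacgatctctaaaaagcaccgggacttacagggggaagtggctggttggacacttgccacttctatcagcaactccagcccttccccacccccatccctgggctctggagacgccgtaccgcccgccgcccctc
The Lgals9 window holds 1 match to the interferon-stimulated response element, on the other strand, at bases 55 to 46 before the start. The Vsir window holds no match to any of the 4 motifs. Tnfrsf14 also had 1 interferon element match, at bases 64 to 55, and the windows of Cd276 and Nectin2 had no match to the 4 motifs. The promoter table held 7 of the 10 ligand genes, not Pvr, Tnfsf9 and Tnfsf4.

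Cd276 (ENSMUSG00000035914, chromosome 9, 58524298 to 58555437, minus strand) encodes B7-H3, a B7 family member found on many tumours. It fell slightly, with 93.5, 94.6 and 90.4 CPM in the Ad-Cre-GFP libraries, against 109, 112 and 115 CPM in the Ad-GFP libraries. This was a log2 fold change of -0.27 ± 0.03 (SE, edgeR adjusted p = 3.48e-07), a fall to 82.9% of the control level, and 59.0% of tested genes had a larger absolute change. The libraries of each group were tight, with coefficients of variation of 2.35% in Ad-Cre-GFP and 2.71% in Ad-GFP. The PD-1 ligand Cd274 (PD-L1) had 4.10, 4.12 and 3.87 CPM in Ad-Cre-GFP and 1.46, 1.53 and 1.70 CPM in Ad-GFP libraries (log2 fold change 1.37 ± 0.15). Of the 13 other B7 and butyrophilin family ligands, Cd274 included, 3 were tested, of which Cd274 rose, Ildr2 fell (-0.40 ± 0.03) and Icosl was not called. Over all tested genes 34.0% were called higher and 35.8% lower, so these calls set the family little apart. A further gene of this family was called higher without Ad-Cre-GFP replicate 1, without Ad-GFP replicate 1 and without Ad-GFP replicate 3, giving 2 in each. The low-count filter was rerun in these fits, so more genes were tested. Of the costimulatory B7 genes, Cd80 had 36 counts in all Ad-Cre-GFP and 8 in all Ad-GFP libraries but did not pass the filter. Its groups did not overlap in CPM, as for 73.0% of all tested genes. Cd86 had 0 counts in every library.

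Among the galectin relatives of Lgals9, the tested galectins fell, while a galectin-like gene and a galectin binding protein gene rose. Of 7 tested genes of a list of 9, 5 were called lower and 2 higher, with a median log2 fold change of -0.50. Over all tested genes 35.8% were called lower and 34.0% higher, and the median was -0.01. Lgals2 (-1.36 ± 0.04), Lgals4 (-1.76 ± 0.24) and Lgals3 (-0.56 ± 0.03) fell. So did Lgals8 (-0.38 ± 0.05), named after its values were seen. Lgals1, named after its values were seen, was at 1903 CPM in Ad-Cre-GFP and 2683 CPM in Ad-GFP libraries (-0.50 ± 0.03). The rises were those of Lgalsl (0.42 ± 0.05), a galectin-like gene named after its values were seen, and of Lgals3bp. Lgals3bp, which encodes a secreted binding protein of galectin-3, rose by 1.83 ± 0.16 (edgeR adjusted p = 0.000236). Its Ad-Cre-GFP libraries spread widely, at 60.0 ± 9.78 CPM, against 16.9 ± 0.566 CPM in Ad-GFP libraries (SD).

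Of the ligands of the TIGIT and CD226 receptors, Nectin2 fell and Pvr was slightly higher, with a call that depended on single libraries. Pvr (ENSMUSG00000040511, chromosome 7, 19903578 to 19921160, minus strand) encodes CD155, the main TIGIT ligand. It had 42.7, 43.8 and 45.2 CPM in the Ad-Cre-GFP libraries, against 41.5, 41.4 and 37.5 CPM in the Ad-GFP libraries. The ranges were separated by about 1 CPM, and Ad-GFP replicate 3 was the lowest. Its log2 fold change was 0.13 ± 0.05 (SE, edgeR adjusted p = 0.0229), with adjusted p-values of 0.00913 to 0.114 over the alternatives run. Leaving out Ad-GFP replicate 3 ended the call (0.08 ± 0.05, edgeR adjusted p = 0.114), and so did leaving out Ad-Cre-GFP replicate 3 (0.12 ± 0.05, edgeR adjusted p = 0.0592). Nectin2 (ENSMUSG00000062300, chromosome 7, 19716644 to 19750483, minus strand), which encodes CD112, lies 153 kb from Pvr on the same strand. It moved in the opposite direction, with 94.4, 99.0 and 94.8 CPM in Ad-Cre-GFP and 127, 136 and 129 CPM in Ad-GFP libraries. For Nectin2 the log2 fold change was -0.44 ± 0.03 (SE, edgeR adjusted p = 2.14e-10), a level 73.7% of the control, and 40.8% of tested genes had a larger absolute change. Both genes that flank Nectin2 rose, Tomm40 by 0.61 ± 0.05 at a gap of 1205 bases and Bcam by 1.55 ± 0.06 at a gap of 5647 bases. Bcl3, the tested gene nearest to Pvr and, like Bcam, between Nectin2 and Pvr, fell (-2.12 ± 0.06).

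Nectins are also adhesion molecules of cell junctions, and other genes of this family rose. Of 7 tested genes of a list of 8, 6 were called higher, none lower, and Cadm2 was not called (edgeR adjusted p = 0.523), with a median log2 fold change of 0.54. Over all tested genes 34.0% were called higher and 35.8% lower, and the median was -0.01. Afdn, which encodes the nectin-binding scaffold afadin, rose by 0.85 ± 0.03, and Cadm1, a nectin-like adhesion molecule, by 0.81 ± 0.04. Nectin1 rose by 0.54 ± 0.08 and Cadm4 by 0.37 ± 0.05. Nectin2 was thus lower while Nectin1, Nectin3 (0.22 ± 0.05) and Nectin4 (1.52 ± 0.42, from 53 counts in all Ad-Cre-GFP and 14 in all Ad-GFP libraries) were higher.

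Tnfrsf14 (ENSMUSG00000042333, chromosome 4, 154921933 to 154928563, minus strand) encodes HVEM, a TNF receptor family member that engages BTLA, CD160 and LIGHT. It had 2, 0 and 0 counts in the Ad-Cre-GFP libraries, against 1, 0 and 0 counts in the Ad-GFP libraries. A count of 0 allows up to 3 counts, which is 0.0990 to 0.161 CPM over these libraries, so that expression below this level was not detectable at this depth, and no comparison was made.

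The TNF superfamily ligands went in opposite directions. Tnfsf9 (ENSMUSG00000035678, chromosome 17, 57105325 to 57107757, plus strand) encodes 4-1BB ligand, which costimulates T cells. It had 109, 109 and 75 counts in the Ad-Cre-GFP libraries, against 127, 174 and 109 counts in the Ad-GFP libraries. Scaled for depth these were 3.73, 3.65 and 2.74 CPM in Ad-Cre-GFP and 5.79, 6.81 and 5.78 CPM in Ad-GFP libraries, with no overlap. For Tnfsf9 the log2 fold change was -0.86 ± 0.13 (SE, edgeR adjusted p = 3.97e-06), a level 55.0% of the control. Its receptor gene Tnfrsf9 (named after its values were seen) fell as well, with 26 counts in all Ad-Cre-GFP and 91 in all Ad-GFP libraries (-2.18 ± 0.30, edgeR adjusted p = 1.11e-06). Tnfrsf9 overlaps Camta1 in the annotation, and Tnfsf9 overlaps the noncoding gene Gm11110 of the opposite strand, which had 20 counts in all Ad-Cre-GFP and 64 in all Ad-GFP libraries.

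Tnfsf4 (ENSMUSG00000026700, chromosome 1, 161395409 to 161418410, plus strand) encodes OX40 ligand, known from antigen-presenting cells and endothelium. It had 27, 24 and 12 counts in the Ad-Cre-GFP libraries, against 1, 1 and 2 counts in the Ad-GFP libraries. Each Ad-GFP library was thus under the 3 counts that a count of 0 allows. The fitted log2 fold change was 3.49 ± 0.54 (SE, edgeR adjusted p = 6.18e-06). The ratio of summed counts per depth was 11.8 (95% exact binomial interval 4.38 to 44.6, counting error only), from 63 counts in all Ad-Cre-GFP and 4 in all Ad-GFP libraries. The level was low in both groups, at 0.722 ± 0.253 CPM in Ad-Cre-GFP and 0.0636 ± 0.0369 CPM in Ad-GFP (SD, n = 3 each). The endothelial markers Kdr (173 counts in all Ad-Cre-GFP, 4 in all Ad-GFP libraries) and Flt1 (734 in all Ad-Cre-GFP, 183 in all Ad-GFP libraries) were higher too. Cdh5 had 3 counts in all Ad-Cre-GFP and 0 in all Ad-GFP libraries, Pecam1 had 10 in all Ad-Cre-GFP and 14 in all Ad-GFP libraries, and Tie1 had 0, and the part of such cells in the Tnfsf4 result was not tested.

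The next tested gene along chromosome 1 is Tnfsf18, which encodes GITR ligand, a further costimulatory TNF family member, at a gap of 76.2 kb. Tnfsf18 had 213, 218 and 226 CPM in the Ad-Cre-GFP libraries, against 16.5, 17.9 and 15.2 CPM in the Ad-GFP libraries (log2 fold change 3.72 ± 0.05, edgeR adjusted p = 7.11e-24). Both genes of this pair were therefore higher in every Ad-Cre-GFP library than in any Ad-GFP library. On the other side, Prdx6, at a gap of 144 kb, rose by 0.94 ± 0.03.

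Of the 16 other TNF superfamily ligands, 6 were tested, 2 of which were called higher (Tnfsf18 and Tnfsf15) and 3 lower (Tnfsf11, Tnfsf12 and Tnfsf13). Tnfsf13, which encodes APRIL, fell (-2.58 ± 0.16), as did Tnfsf12, which encodes TWEAK (-1.05 ± 0.09). Tnfsf15 had 80 counts in all Ad-Cre-GFP and 2 in all Ad-GFP libraries, and Tnfsf11 had 2 in all Ad-Cre-GFP and 39 in all Ad-GFP libraries. Cd70, Tnfsf14, Tnf, Cd40lg and Tnfsf8 had 0 counts in every library. Of 15 tested receptors of the superfamily, 5 were called higher and 6 lower. With 34.0% of all tested genes called higher and 35.8% lower, these counts of ligands and receptors set the superfamily little apart. The TNF receptor genes Tnfrsf1b (-2.76 ± 0.05) and Tnfrsf1a (-1.20 ± 0.03) and the death receptor gene Tnfrsf25 (-1.99 ± 0.16) fell, and Tnfrsf21 rose by 1.50 ± 0.05.

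**Figure D2:**
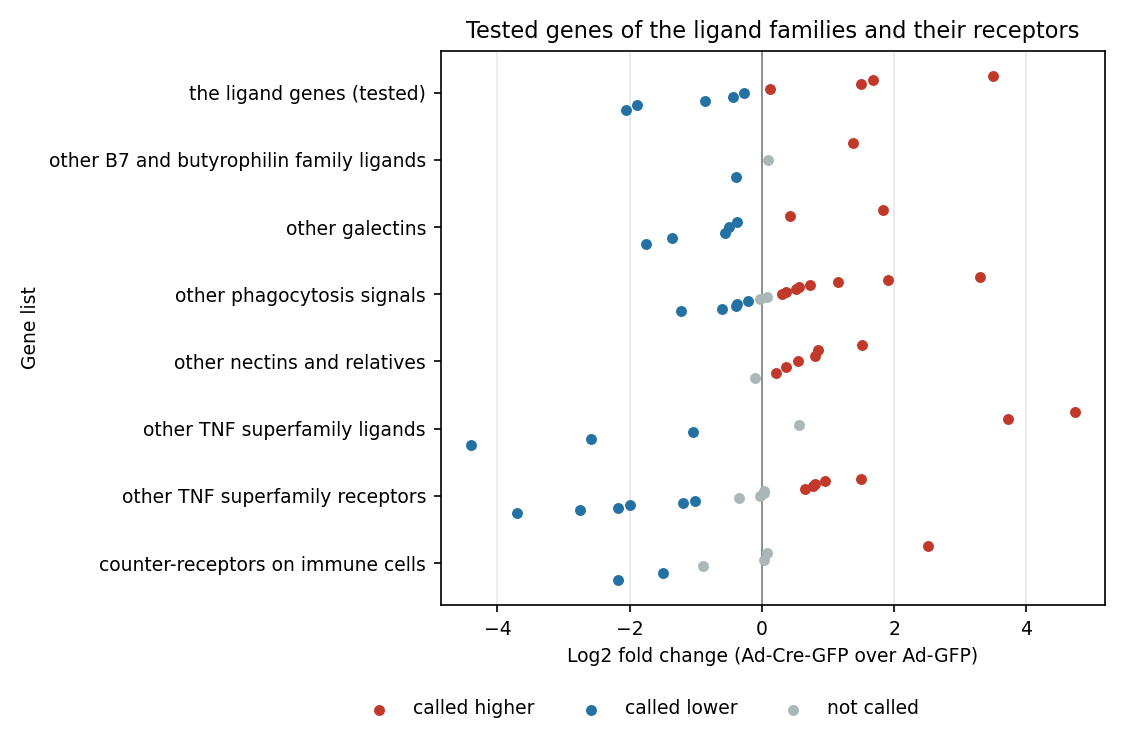
Log2 fold change (Ad-Cre-GFP over Ad-GFP) of every tested gene of the ligand list and of 7 lists of related genes; each point is 1 gene, coloured by its edgeR call. The nectin list holds 6 genes called higher and none lower, and the galectin list 2 higher and 5 lower.

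Receptors through which immune cells read these or other checkpoint ligands were low or at 0. The list includes Pdcd1, Ctla4, Cd28, Icos and Lag3, which are best known for other ligands. Of the 16 listed receptor genes, 5 had 0 counts in every library (Pdcd1, Ctla4, Cd226, Cd96 and Btla). The filter was passed by 6, of which 1 was called higher, 2 lower and 3 not called. Among all tested genes, 34.0% were called higher and 35.8% lower. The summed list was 5.81 to 6.42 CPM in Ad-Cre-GFP and 9.15 to 9.79 CPM in Ad-GFP libraries. Lag3 fell (-1.50 ± 0.15), with 139 counts in all Ad-Cre-GFP and 302 in all Ad-GFP libraries. Tigit, named after its values were seen, had 35, 41 and 30 counts in the Ad-Cre-GFP libraries, against 7, 3 and 4 counts in the Ad-GFP libraries (log2 fold change 2.51, edgeR adjusted p = 1.05e-06). The T cell gene Cd3e had 2 counts in all Ad-Cre-GFP and 3 in all Ad-GFP libraries, and the part of T cells in the Tigit result was not tested. Havcr2, which encodes the galectin-9 receptor TIM-3, had 25 counts in all Ad-Cre-GFP and 36 in all Ad-GFP libraries and was not called (edgeR adjusted p = 0.107).

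**Figure D3:**
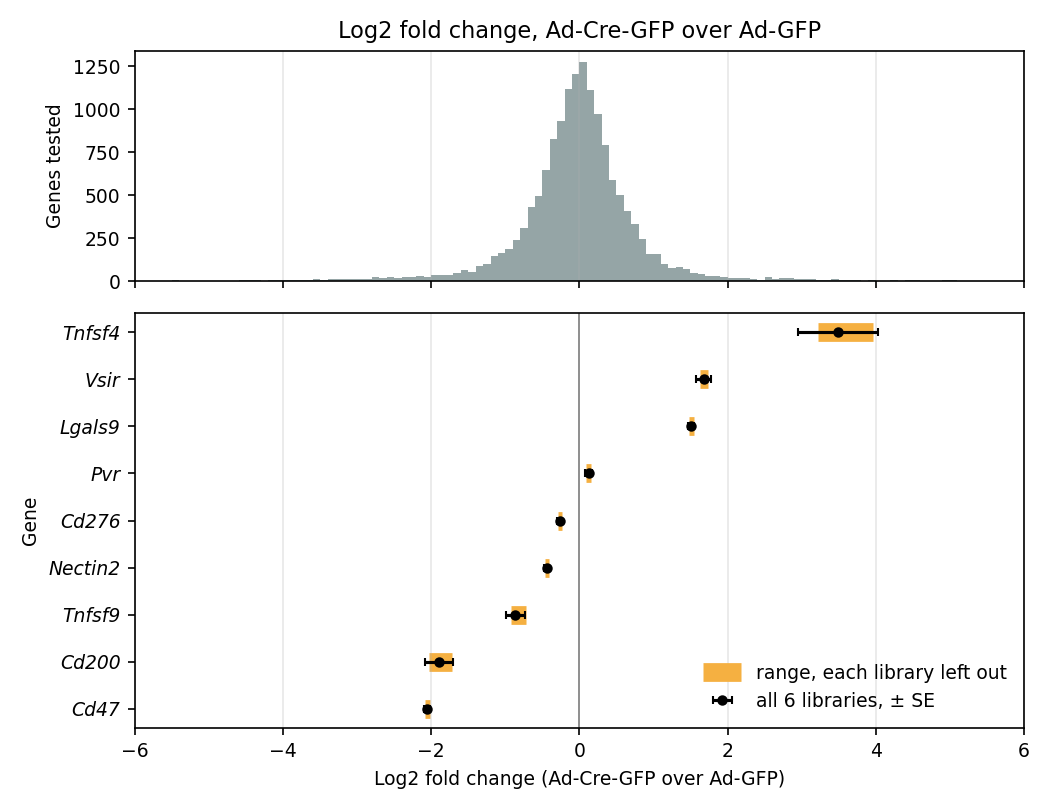
Log2 fold changes (Ad-Cre-GFP over Ad-GFP) of all tested genes as a histogram in bins of 0.1 (top; 25 genes lie beyond the axis) and of the 9 tested ligand genes (bottom). Points with bars are the estimate ± SE from 6 libraries, and orange bands span the estimates with each library left out in turn. Tnfsf4 has the widest band, 3.22 to 3.97, and every band lies on 1 side of 0.

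To compare levels between genes, CPM was divided by the length of each gene's annotated exons in kilobases. On this scale the order of the ligands differed between the groups at its top and among the scarce genes Vsir, Tnfsf4 and Cd200. In Ad-Cre-GFP libraries it was Lgals9 (49.0 CPM per kilobase), Nectin2 (27.5), Cd276 (25.4), Cd47 (16.9), Pvr (7.17), Tnfsf9 (2.61), Vsir (2.01), Tnfsf4 (0.392), Cd200 (0.269) and Tnfrsf14 (0.0159). In Ad-GFP libraries it was Cd47 (70.2 CPM per kilobase), Nectin2 (37.3), Cd276 (30.6), Lgals9 (17.3), Pvr (6.56), Tnfsf9 (4.75), Cd200 (0.999), Vsir (0.626), Tnfsf4 (0.0345) and Tnfrsf14 (0.0106). Neighbours in these orders did not overlap between libraries, except Tnfsf4 with Cd200 in Ad-Cre-GFP and Tnfsf4 with Tnfrsf14 in Ad-GFP. Lgals9 and Cd47 exchanged places 1 and 4 between the groups, with Nectin2 and Cd276 between them in both. Before the division by length, Lgals9 and Cd47 were near-equal in Ad-Cre-GFP libraries, at 105 and 106 CPM. Their places and their ratio there thus rest on annotated exon lengths of 2137 and 6276 bases. Which transcripts were expressed was not tested, and other lengths could change the order.

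Summed over the 10 genes, the length-scaled level was 131 ± 3.98 CPM per kilobase in Ad-Cre-GFP and 168 ± 3.04 in Ad-GFP (SD, n = 3 each). Lgals9 made 37.4% of this sum in Ad-Cre-GFP and 10.2% in Ad-GFP, and Cd47 12.9% in Ad-Cre-GFP and 41.7% in Ad-GFP. Within single libraries, the ratio of Lgals9 to Cd47 per length was 2.84 to 2.96 in Ad-Cre-GFP and 0.227 to 0.265 in Ad-GFP. The ratio of Pvr to Nectin2 was 0.253 to 0.272 in Ad-Cre-GFP and 0.167 to 0.187 in Ad-GFP, so that Nectin2 remained the more abundant of these TIGIT ligands in every library. The ratio of Vsir to Cd276 was 0.0758 to 0.0840 in Ad-Cre-GFP and 0.0181 to 0.0229 in Ad-GFP.

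**Figure D4:**
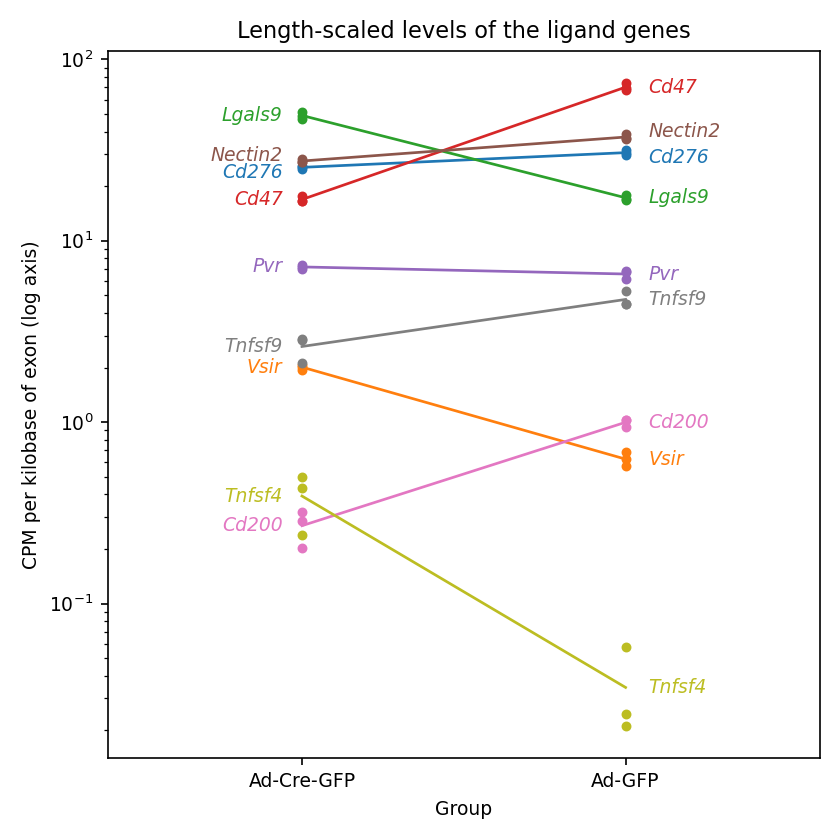
CPM per kilobase of annotated exon (log axis) of the 9 tested ligand genes in Ad-Cre-GFP (left) and Ad-GFP libraries (right); points are libraries and lines join group means. The lines of Lgals9 and Cd47 cross, with Lgals9 highest in Ad-Cre-GFP at 49.0 and Cd47 highest in Ad-GFP at 70.2.

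For the 5 ligands called with a change of at least 2-fold, the tested genes with the most similar profile over the 6 libraries were found by the Euclidean distance between mean-centred log2 CPM values. With 2 groups, a small distance mainly means a like difference between the groups. The closest to Cd47 were Sytl2 (distance 0.0397) and Lifr (0.0739), and the closest to Lgals9 were Llgl2 (0.0732) and Tnfrsf21 (0.0823). For Vsir they were Ptprz1 (0.0912) and Akr1c14 (0.160), and for Cd200 they were Padi2 (0.127) and Sfxn5 (0.303). For Tnfsf4, whose counts are low, they were Iigp1 (0.862) and Oas3 (0.937).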

How the data were processed

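Poly(A)-selected RNA of 6 libraries was sequenced, per the labels' protocols. The table deposited by the authors holds unnormalized counts for each Ensembl gene ID, in 1 column per library named after an alignment (BAM) file, per the file headers. GRCm38, kallisto 0.46.2 and sleuth 0.30.1 appear in the submitters' processing notes, with no role stated. The sources used here do not give the aligner, the counter, its strand setting or the annotation release.

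Symbols, coordinates and exon lengths came from GENCODE mouse release 21 (GRCm38), which matched 48058 of 48440 IDs. After filterByExpr and TMM scaling, edgeR 4.0.16 was used (robust quasi-likelihood test, R 4.3.3), and p-values were adjusted over 14811 genes. Each SE was derived from the fold change and the F statistic. The fit was tested on simulated data. Replicate pairs differed beyond sampling noise (chi-square per gene 2.04 to 4.27), so 6 libraries were kept. A search with minimap2 2.31 (200 bases, 90% identity) found 1 ligand gene with a near-identical annotated transcript of another gene, Cd276 with the overlapping Gm10657.

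The ligand genes, the lists and the tests were chosen with earlier results of these data known. Named list genes are up to 4 per list with the largest absolute log2 fold change among those called with a mean of at least 1 CPM. Neighbouring and overlapping genes, and list genes outside this rule, were named after their values were seen. The alternatives tried were DESeq2's size factors, scaling by the upper quartile, DESeq2 1.42.0, a filter at a mean of 1 CPM, no filter, limma-voom (limma 3.58.1), no robust estimation, a replicate block, thinning to the smallest library total, and leaving out each library. One marker gene is not reported here.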

Additional observations from a re-analysis of the deposited data

How the results depend on the processing

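Under the 15 alternatives, the 9 tested ligand genes kept their direction and, apart from Pvr, their call (Tnfsf4 was not tested with a mean of at least 1 CPM). Pvr had adjusted p-values from 0.00913 to 0.114 and lost its call without Ad-Cre-GFP replicate 3 and without Ad-GFP replicate 3. The median of all genes moved by at most 0.0169 on the log2 scale, without a low-count filter. DESeq2 called 9351 genes against 10344 with edgeR. Without a low-count filter, the higher calls were 3 among the B7 and butyrophilin ligands, 2 among the counter-receptors and 1 among the immune markers. With a mean of at least 1 CPM, the higher calls were 1 among the TNF ligands and 0 among the counter-receptors, and the lower calls were 3 among the TNF receptors, 1 among the counter-receptors and 3 among the fibroblast markers, since fewer genes were tested. DESeq2 gave 3 lower calls among the phagocytosis signals against 5. Leaving out libraries gave 3 to 5 there and 1 to 2 higher calls among the B7 and butyrophilin ligands. The low-count filter was rerun for each library left out, with 15032 to 15209 genes tested against 14811. The part of this in the changed calls was not tested. Same-numbered libraries of both groups deviated together with correlations of 0.135, 0.105 and 0.0852, so the numbers were not taken as pairs, although each library correlated best with its own number. With the replicate block 10478 genes were called, and the ligands again had 4 higher and 5 lower calls. The depth limits Tnfrsf14, which could not be compared, and the Ad-GFP level of Tnfsf4.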
